A study of Sciaenops ocellatus with 36 samples.

Results

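The immediate early genes NPAS4, FOS, FOSB, FOSL1, FOSL2, JUN, JUNB, EGR1, EGR2 and ATF3 were followed in whole embryos and larvae of red drum, the marine fish Sciaenops ocellatus, kept with or without Deepwater Horizon crude oil. The 10 members are the rows that carry these human symbols among the 56346 rows of each deposited count table, and 9 of the 10 had a count in at least 1 library. They were chosen with their difference between the oils at 72 hours post-fertilization (hpf) known, so every value of the oil comparisons at 72 hpf is given as a description, and nothing is read from the numbers of genes past a threshold there. RNA was sequenced from pools of 30 animals. Slick oil, a naturally weathered oil taken from a surface slick, was labelled 2.5%, and source oil, a non-weathered oil labelled Mass, was labelled 0.27%. Clean-water animals stood beside each oil in a series of their own, with an oil concentration of 0. Animals were taken at 24, 48 and 72 hpf, and embryos of every group, clean-water groups included, had been bathed in formalin against bacteria before the tests. The groups used were slick-oil and source-oil animals at 24 hpf and at 72 hpf, slick-oil animals at 48 hpf, and clean-water animals of the slick series at 24 and 48 hpf and of the source series at 24, 48 and 72 hpf. Because doses differ between the oils as labelled, values of the 2 oils are set side by side and the effect of dose cannot be told apart from that of the oil.

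Immediate early genes are transcribed within minutes of a stimulus from factors already present in the cell, before new protein is made. FOS family proteins (FOS, FOSB, FOSL1, FOSL2) pair with JUN family proteins to form the AP-1 transcription factor, ATF3 is a stress-induced factor that also pairs with JUN proteins, and EGR1 and EGR2 are zinc-finger factors. NPAS4 is a factor known from mammalian neurons, where calcium entry during activity switches it on. Growth factors, injury, light, stress and handling before sampling can all induce genes of this kind, and EGR2 also takes part in patterning the hindbrain.

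The values come from 29 libraries in 10 groups, with 3 libraries per group except for slick-series clean water at 24 hpf, which had 2. Total counts ran from 2532771 to 3280939 in 23 libraries and from 4771973 to 5880716 in the 6 libraries of the 24 hpf source-oil table. Levels are CPM, counts scaled to library size after TMM scaling for library composition, and are compared only within a gene, since no transcript lengths were used. The 24 hpf source-oil table assigned reads to symbols in another way than the others and was scaled apart. Headers of the slick-oil columns at 48 and 72 hpf end in numbers that headers of source-series clean-water columns also carry. Those at 24 hpf end in numbers that recur in no column used. What these numbers stand for is not given. Slick-oil libraries may have been sequenced apart, and if so, slick oil and sequencing set cannot be told apart in any slick-oil comparison below. Source oil at 48 hpf and slick-series clean water at 72 hpf were not analysed here, so both oils at 72 hpf were set against the same 3 source-series clean-water libraries. Every slick-oil comparison at 72 hpf therefore also crosses the series, and slick oil and series cannot be told apart there. With no oil at 48 hpf, 4.45% of all genes were called between the series. The labels give neither the hour of sampling nor the spawn or tank of each replicate pool, so p-values measure only the spread between these samples, which may be technical.

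Detection differed among the members. FOSL2, JUNB, EGR1 and EGR2 had counts in 29 of 29 libraries, NPAS4 and FOS in 26, FOSB in 23 and FOSL1 in 11. JUN, the partner most often joined to FOS in mammals, had 0 counts in all 29 libraries, while its relatives JUNB and JUND were measured, JUND at 1.11 to 22.4 CPM in the 23 libraries of shared assignment. ATF3 had 0 counts in those 23 libraries, which allows a level of up to 0.0448 CPM over all of them together (3 counts, counting error only). That limit holds for the row under this assignment of reads and not for the fish gene. ATF3 was measured in each of the 6 libraries of the 24 hpf source-oil table. JDP2, a close relative of ATF3, showed the same split, with 0 counts in the 23 libraries and 0.897 to 1.81 CPM in the 6. Rows carry human symbols, so a row holds any fish transcript that was matched to that symbol, copies that fish have in addition may be merged, and a count of 0 does not show that the fish gene was silent. No member had the same counts as another row.

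Among the 8 groups that share 1 read assignment, source-oil larvae at 72 hpf had the highest mean of all 8 members measured there. Slick-oil larvae of that age came next and clean-water larvae after them, except for JUNB, where clean water lay above slick oil. The remaining 5 groups, all at 24 or 48 hpf, lay below the 3 groups at 72 hpf for each of the 8 members. The mean of NPAS4 spanned 0.341 CPM in slick-series clean-water embryos at 24 hpf to 47.7 CPM in source-oil larvae at 72 hpf. EGR1 spanned 21.4 to 196 CPM and EGR2 6.91 to 67.5 CPM between their lowest and highest groups. At 24 and 48 hpf NPAS4, FOS, FOSB and FOSL1 had at most 12 counts in any library, so the order of those groups rests on very few reads and neighbours in it overlap.

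**Figure D1:**
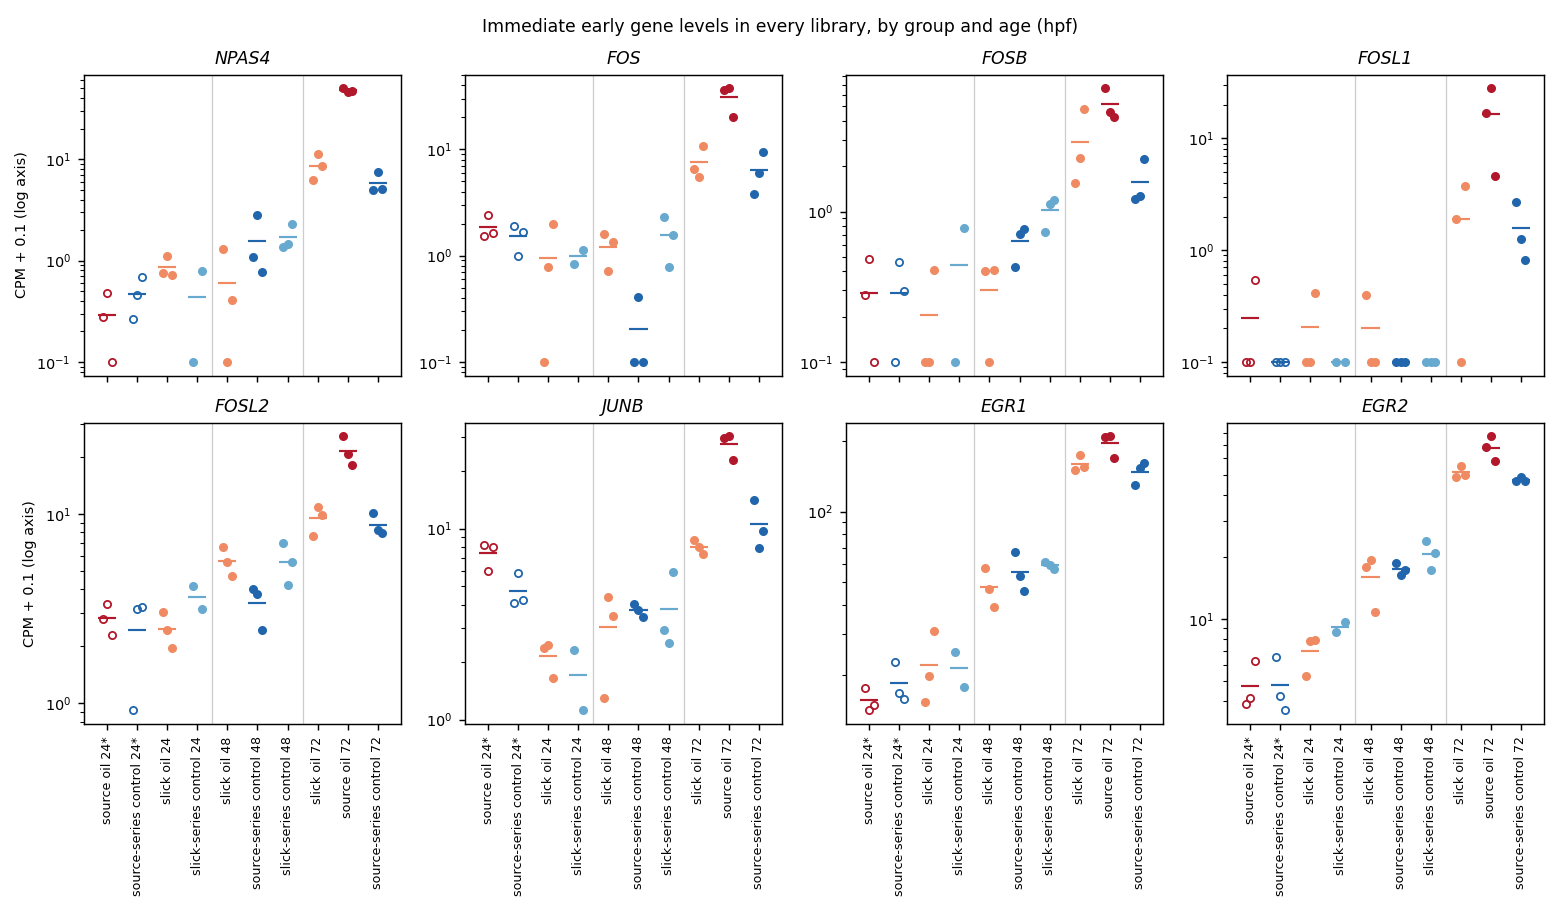
Levels of the 8 members measured in the 23 libraries that share 1 read assignment, in CPM plus a small constant on a log axis, for each library (points) and group (bars are means), ordered by age in hpf. Open points marked with an asterisk are the 6 libraries of the 24 hpf source-oil table, scaled apart. Source-oil larvae at 72 hpf have the highest mean in every panel.

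At 72 hpf NPAS4 had 6.11, 11.2 and 8.39 CPM in the slick-oil libraries, 50.1, 45.6 and 47.3 CPM in the source-oil libraries and 4.81, 7.38 and 4.98 CPM in the clean-water libraries. The 3 source-oil pools were all high and close to each other, while slick-oil and clean-water pools overlapped. Underlying counts were 17, 31 and 23 in slick oil, 123, 122 and 125 in source oil and 13, 19 and 14 in clean water. The log2 fold change was 3.07 (SE 0.19, n = 3 each) for source oil over clean water, an 8.42-fold difference. It was 0.60 (SE 0.30) for slick oil over the same clean-water libraries and -2.46 (SE 0.18) for slick oil over source oil. In RNA of whole animals, fewer cells of a type and less RNA per cell cannot be told apart.

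FOS, the founding member of its family, had 6.47, 5.41 and 10.6 CPM in slick oil, 35.8, 37.4 and 20.1 CPM in source oil and 3.70, 5.82 and 9.26 CPM in clean water. Each source-oil library lay above all 6 others, and the third source-oil library was the lowest of its group. Log2 fold changes were 2.31 (SE 0.26) for source oil over clean water, 0.26 (SE 0.32) for slick oil over clean water and -2.03 (SE 0.24) for slick over source oil. The difference of slick oil from clean water changed sign when slick-oil library 3 was left out (-0.07) or when clean-water library 1 was left out (-0.02).

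FOSL1 (FRA-1) is a FOS relative that in mammals is itself induced through AP-1, usually later than FOS. It had 1.80, 0 and 3.65 CPM in slick oil, 16.7, 28.1 and 4.54 CPM in source oil and 2.59, 1.16 and 0.712 CPM in clean water, from 5, 0 and 10, then 41, 75 and 12, then 7, 3 and 2 counts. Source-oil pools differed from each other by up to 6.25 times, yet the lowest of them was still above every slick-oil and clean-water pool. The log2 fold change of source oil over clean water was 3.45 (SE 0.53), and it was 2.79 without source-oil library 2 and 4.09 without clean-water library 1. Slick oil over source oil gave -3.14 (SE 0.52), with -2.49 without source-oil library 2 and -4.11 without slick-oil library 3.

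FOSB, the other FOS protein of stimulated neurons in mammals, averaged 2.78 ± 1.74 CPM in slick oil, 5.06 ± 1.27 CPM in source oil and 1.47 ± 0.577 CPM in clean water (SD, n = 3 each). One slick-oil library (4.74 CPM) lay inside the range of source oil, so those groups overlapped. The log2 fold change was 1.75 (SE 0.43) for source oil over clean water and -0.83 (SE 0.40) for slick over source oil, which became -1.44 without slick-oil library 3. FOSB and FOSL1 entered these fits through the source-oil libraries, since they did not pass the filter on low counts between slick oil and clean water.

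FOSL2 (FRA-2), a FOS protein with a steadier expression in many tissues, averaged 9.40 ± 1.68 CPM in slick oil, 21.5 ± 3.82 CPM in source oil and 8.66 ± 1.17 CPM in clean water. JUNB, the JUN family protein that pairs with them and dampens the activity of JUN, averaged 7.95 ± 0.666, 27.6 ± 4.22 and 10.5 ± 3.24 CPM in slick oil, source oil and clean water. In both genes all 3 source-oil libraries lay above the other 6, and slick oil overlapped clean water. FOSL2 had log2 fold changes of 1.32 (SE 0.21) for source oil and 0.14 (SE 0.25) for slick oil over clean water, and -1.17 (SE 0.21) for slick over source oil. For JUNB they were 1.41 (SE 0.21), -0.38 (SE 0.26) and -1.77 (SE 0.20).

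The EGR genes differed less between the oils than the FOS genes and NPAS4. EGR1 had 151, 174 and 155 CPM in slick oil, 207, 209 and 170 CPM in source oil and 129, 153 and 162 CPM in clean water, so that the third source-oil library lay below the highest slick-oil library. EGR2 had 48.9, 54.8 and 50.0 CPM in slick oil, 68.0, 76.7 and 57.9 CPM in source oil and 46.3, 48.9 and 46.3 CPM in clean water, and source oil overlapped neither group. Log2 fold changes of EGR1 were 0.42 (SE 0.11) for source oil and 0.13 (SE 0.09) for slick oil over clean water. Those of EGR2 were 0.54 (SE 0.12) and 0.14 (SE 0.12), and slick over source oil gave -0.28 (SE 0.10) for EGR1 and -0.38 (SE 0.12) for EGR2.

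For source oil at 72 hpf, 8 of the 8 members that passed the filter were higher than in clean water at an adjusted p under 0.05 (edgeR quasi-likelihood test, Benjamini-Hochberg over all genes tested), beside 11.4% of all genes higher at that threshold and 20.4% in either direction. FOSB and FOSL1 are among these 8 although they reached the filter's level in source-oil libraries alone, so that they had to differ. All 8 had source-oil libraries above every clean-water library, beside 16.8% of all genes. For slick oil, 0 of 6 passed, beside 18.6% of all genes in either direction, and 1 of the 6, NPAS4, had an unadjusted p under 0.05. DESeq2 passed 7 for source oil, with no adjusted p given for FOSB, and 0 for slick oil. The authors' deposited log2 fold changes for source oil were smaller than the edgeR estimates in all 8. They were 1.05 for FOSL1, 0.90 for FOSB, 1.83 for FOS and 2.59 for NPAS4. Between the oils, 5 of 8 members were at least 2-fold lower in slick oil (NPAS4, FOS, FOSL1, FOSL2 and JUNB), beside 1.40% of all genes lower by that much and 1.81% in either direction, and 6 of 8, those with EGR2, did not overlap, beside 17.9%. These members were selected on this contrast, so nothing is read from the counts. JUN and ATF3 had no counts at 72 hpf.

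**Figure D2:**
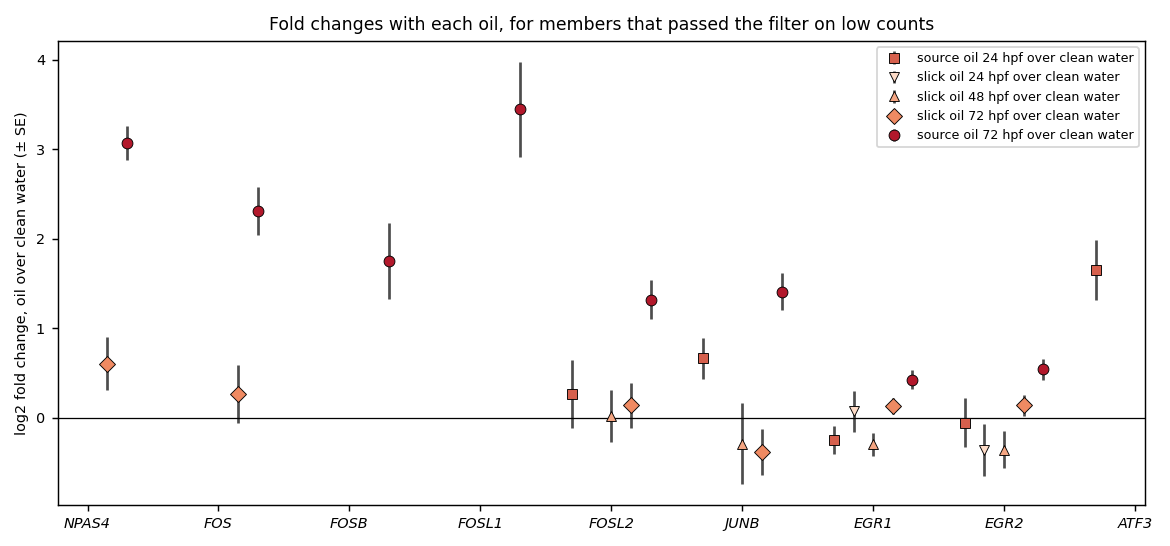
Log2 fold change (± SE) of oil over clean water for each member that passed the filter on low counts, in 5 comparisons from 24 to 72 hpf, the last 2 sharing their clean-water libraries. Source oil at 72 hpf lies highest in the members that have more than 1 point. FOSB and FOSL1 (3.45) passed the filter with source oil at 72 hpf alone, so nothing stands beside them. NPAS4 (3.07) and FOS have points at 72 hpf only. ATF3 (1.65) had counts only in the 24 hpf source-oil table, in oil and clean water alike, and that table assigned reads in another way.

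The libraries of a group did not deviate alike in all members. In source oil at 72 hpf, library 3 was the lowest in 7 of the 8 members and NPAS4 was the exception, with its lowest value in library 2. Library 2 was the highest in 5 members and library 1 in 3. In slick oil, library 1 was the lowest in 5 of 8 members, and library 3 was the highest in FOS, FOSB and FOSL1. In clean water, library 1 was the lowest in 5 of 8 and library 2 in 1.

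**Figure D3:**
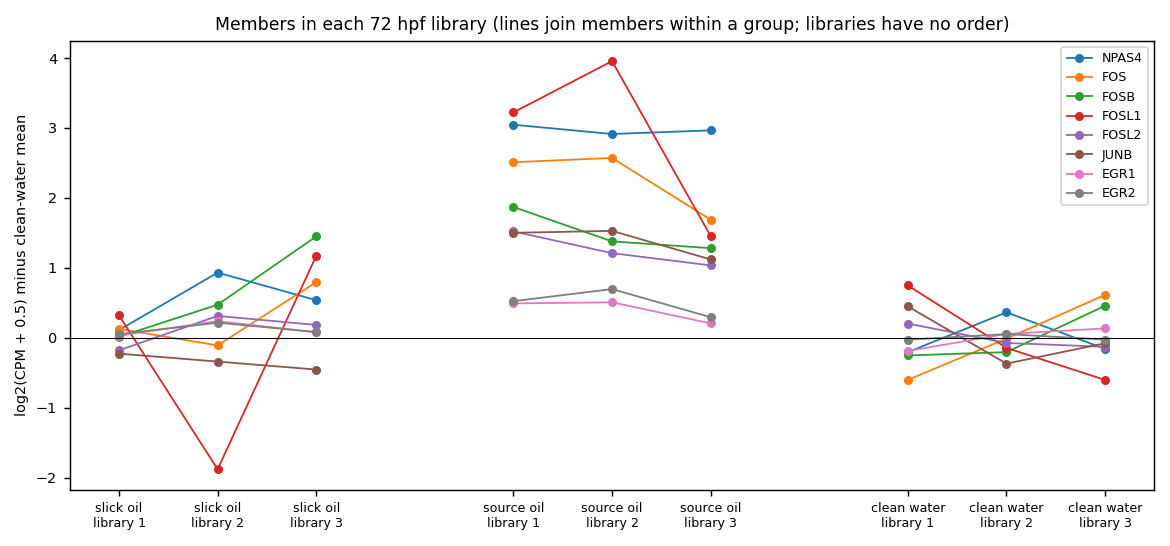
Each member in each 72 hpf library, as log2(CPM + 0.5) minus the mean of the clean-water libraries. Lines join the values of a member within a group and carry no order. NPAS4 is nearly level across the source-oil libraries, whereas FOS and FOSL1 are lowest in library 3, and FOSL1 is undetected in slick-oil library 2.

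By the edgeR estimate of spread, NPAS4 was among the most even genes between libraries of a group. Its biological coefficient of variation, the edgeR estimate of spread beyond counting error over 23 libraries in 8 groups, was 0.0326, against 0.0943 for genes of its level, and 4.40% of the 9768 genes in the fit were lower. In source oil at 72 hpf the variance of its counts was 0.0189 times their mean, where counting error alone gives about equal values. That ratio was 2.08 in slick oil and 0.674 in clean water at 72 hpf. At 48 hpf it was 2.6 in slick oil, and 3.07 and 0.286 in source-series and slick-series clean water. At 24 hpf it was 0.143 in slick oil and 2 in slick-series clean water. Each ratio rests on 2 or 3 libraries. FOSL1 was near the other extreme with a coefficient of 0.397 against 0.110 at its level, above 99.96% of genes. FOS had 0.209 against 0.0979, above 99.1%. FOSB had 0.125 against 0.113, JUNB 0.115 against 0.0960 and EGR1 0.104 against 0.0718. EGR2 (0.0808 against 0.0841) and FOSL2 (0.0676 against 0.0960) lay below the trend, so that 5 of 8 members were above it. The median of all genes was 0.0746. Taken instead as the SD of log2 CPM within groups, NPAS4 (0.54 against 0.32) and EGR2 (0.23 against 0.19) were above the trend and FOSB (0.47 against 0.57) was below it, so the place of these 3 depends on the measure. That SD gives full weight to groups at 24 and 48 hpf where NPAS4 had 0 to 9 counts a library.

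**Figure D4:**
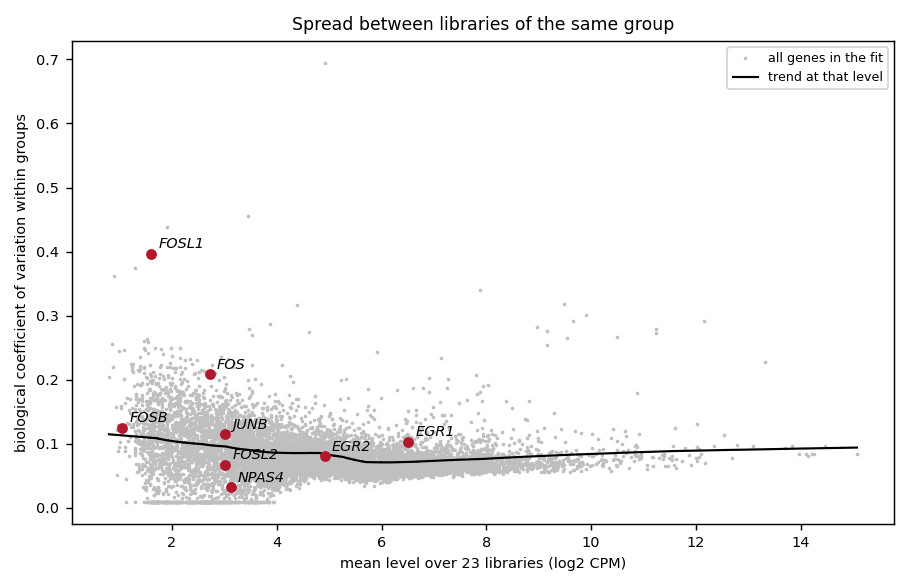
Biological coefficient of variation within groups against mean level (log2 CPM) for the 9768 genes in the fit of 23 libraries (grey), with the trend at each level (line) and the 8 members measured there (red). FOSL1 and FOS lie far above the trend and NPAS4 lies below it.

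In the 24 hpf source-oil table the estimates were 0.147 for FOSL2 (0.0967 at its level), 0.128 for EGR2 (0.0945), 0.0916 for EGR1 (0.0771), 0.0891 for JUNB (0.0936) and 0.0880 for ATF3 (0.0966). FOSL2 had 1 clean-water library at 0.824 CPM beside 3.06 and 3.13 CPM in the other two.

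ATF3 was the member called higher with source oil at 24 hpf. It had 3.23, 4.59 and 4.83 CPM in source-oil embryos and 0.989, 1.80 and 1.17 CPM in clean-water embryos, from 18, 24 and 22 counts and 6, 10 and 6 counts. The groups did not overlap. The log2 fold change was 1.65 (SE 0.33, 95% interval 1.00 to 2.30), with an adjusted p of 0.00286 (edgeR quasi-likelihood test, Benjamini-Hochberg), and higher values stood in 3 of 3 source-oil libraries. It stayed between 1.46 and 1.94 when each library was left out in turn. ATF3 passed the filter through the source-oil libraries alone, since 3 of 3 of them and 0 of 3 clean-water libraries reached its level of 1.85 CPM. It therefore had to differ, and its interval, adjusted p and fits without a library are given as a description. It was also called with no filter. The authors' deposited table gives 0.67 with an adjusted p of 0.00557 for the same gene, a smaller value than the edgeR estimate.

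ATF3 made up 1 of the 5 members that passed the filter in this comparison, beside 5.42% of all genes called in either direction and 3.98% called higher. It reached the filter's level in source-oil libraries alone, so that it had to differ, and nothing is read from this count. JUNB had 8.07, 5.93 and 7.91 CPM in source oil and 3.96, 5.77 and 4.11 CPM in clean water. Its groups did not overlap, as was so in the same direction for 11.0% of genes, but its log2 fold change of 0.66 (SE 0.23, 95% interval 0.21 to 1.11) had an adjusted p of 0.121 in edgeR. EGR1 (-0.25, SE 0.16), EGR2 (-0.06, SE 0.28) and FOSL2 (0.26, SE 0.38) also missed the threshold, with adjusted p from 0.482 to 0.946 in edgeR. NPAS4 had 1, 2 and 0 counts in source oil and 1, 2 and 3 in clean water. FOS had 8, 12 and 7 counts in source oil and 11, 5 and 8 in clean water, and neither passed the filter.

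With slick oil at 24 hpf no member was called: 0 of the 2 that passed the filter, beside 2.19% of all genes, with 0 at an unadjusted p under 0.05 in edgeR and 0 called by DESeq2. EGR1 had 15.3, 19.8 and 30.8 CPM in slick oil and 25.1 and 17.7 CPM in clean water, with a log2 fold change of 0.07 (SE 0.23, 95% interval -0.38 to 0.52). EGR2 had 5.21, 7.74 and 7.77 CPM in slick oil and 8.50 and 9.55 CPM in clean water, with a log2 fold change of -0.36 (SE 0.29, 95% interval -0.93 to 0.20). Slick-oil libraries thus lay below both clean-water libraries for EGR2, as they did for FOSL2, with 9, 7 and 6 counts in slick oil and 11 and 9 in clean water. Groups failed to overlap in that direction for 16.7% of the genes that passed the filter, which FOSL2 did not. NPAS4 had 2, 3 and 2 counts in slick oil and 0 and 2 in clean water.

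With slick oil at 48 hpf 0 of the 4 members that passed the filter were called in edgeR, beside 2.68% of all genes, 1 had an unadjusted p under 0.05, and DESeq2 called 0. That gene was EGR1, with 57.2, 46.5 and 39.0 CPM in slick oil and 60.6, 59.4 and 56.9 CPM in clean water. Its log2 fold change of -0.30 (SE 0.13) had an adjusted p of 0.261 in edgeR, and without slick-oil library 1 it was -0.46 with an adjusted p of 0.0129. EGR2 (-0.36, SE 0.21), JUNB (-0.29, SE 0.45) and FOSL2 (0.02, SE 0.29) did not pass either. NPAS4 had 4, 0 and 1 counts in slick oil and 4, 4 and 6 in clean water, a ratio of 0.319 with a 95% counting interval of 0.0900 to 0.939. FOSB had 1, 0 and 1 counts in slick oil and 2, 3 and 3 in clean water, a ratio of 0.224 (0.0231 to 1.12). In CPM neither overlapped between groups, as was so in that direction for 11.2% of the genes that passed the filter. NPAS4 and FOSB did not pass it, and the intervals cover counting error only.

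Whether the slick-oil difference changed between 24 and 48 hpf was tested as an interaction, and 0 of 4 members were called, beside 0% of all 9498 genes tested. At an unadjusted p under 0.05 there were 0 members and 1078 genes, and DESeq2 called 0 members. The difference of the log2 fold changes (48 minus 24 hpf) was 0.60 (SE 0.52) for FOSL2, -0.64 (SE 0.78) for JUNB, -0.34 (SE 0.29) for EGR1 and 0.03 (SE 0.35) for EGR2.

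Clean-water larvae of the 2 series at 48 hpf show how far these genes differ with no oil. In edgeR 0 of the 4 members that passed the filter were called, beside 4.45% of all genes, with 1 at an unadjusted p under 0.05, and DESeq2 called 0. FOSL2 had 3.92, 3.66 and 2.35 CPM in the source series and 6.95, 4.12 and 5.47 CPM in the slick series, a log2 fold change of -0.72 (SE 0.33) with an adjusted p of 0.211 in edgeR. JUNB (0.02, SE 0.37), EGR1 (-0.09, SE 0.13) and EGR2 (-0.24, SE 0.17) had adjusted p from 0.440 to 0.986 in edgeR. FOS, too low to pass the filter, had 0, 1 and 0 counts in the source series and 7, 2 and 4 in the slick series, a ratio of 0.0729 with a 95% counting interval of 0.00171 to 0.485. NPAS4 had 3, 9 and 2 counts in the source series and 4, 4 and 6 in the slick series, a ratio of 0.947 (0.419 to 2.14). FOS and FOSL2 did not overlap between the series, as was so in that direction for 13.5% of the genes that passed the filter, which FOS did not.

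EGR1 and EGR2 rose with age in clean water at both steps. From the slick series, 48 hpf larvae were set against 24 hpf embryos, and EGR1 and EGR2 were the 2 of 3 tested members called higher, beside 23.7% of all genes called higher and 47.0% in either direction. EGR1 averaged 59.0 ± 1.90 CPM at 48 hpf (SD, n = 3) and 21.4 ± 5.24 CPM at 24 hpf (SD, n = 2). Its log2 fold change was 1.48 (SE 0.15) with an adjusted p of 1.94e-09 in edgeR. EGR2 averaged 20.5 ± 3.27 CPM at 48 hpf and 9.02 ± 0.738 CPM at 24 hpf, with a log2 fold change of 1.19 (SE 0.23) and an adjusted p of 7.34e-05 in edgeR. FOSL2 had 0.65 (SE 0.38) with an adjusted p of 0.169 in edgeR. NPAS4 had 14 counts over the 3 libraries at 48 hpf and 2 over the 2 libraries at 24 hpf, a ratio of 4.47 with a 95% counting interval of 1.03 to 40.6. In all, 5 members lay higher without overlap (NPAS4, FOSL2, JUNB, EGR1 and EGR2). So did 31.2% of the genes that passed the filter, which NPAS4 and JUNB did not.

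In the source series, 72 hpf larvae were set against 48 hpf larvae, and 6 of 6 tested members rose, beside 17.2% of all genes called higher and 30.8% in either direction. NPAS4 and FOS passed the filter through the 72 hpf libraries alone, 3 of 3 of which reached its level of 3.33 CPM beside 0 of 3 at 48 hpf. Both therefore had to differ, and their calls and adjusted p are given as a description. FOSL2 reached that level in 2 of 3 at 48 hpf. With no filter 7 members were called, these 6 and FOSL1. NPAS4 averaged 5.72 ± 1.43 CPM at 72 hpf and 1.47 ± 1.12 CPM at 48 hpf (SD, n = 3 each). Its log2 fold change of 1.88 (SE 0.43) had an adjusted p of 0.00175 in edgeR and became 2.71 without clean-water library 2 at 48 hpf, which held 9 of the 14 counts of that group. EGR1 (1.41, SE 0.13), EGR2 (1.44, SE 0.14), JUNB (1.51, SE 0.30) and FOSL2 (1.36, SE 0.30) also rose, with adjusted p from 1.19e-08 to 0.00128 in edgeR. FOS was called with an adjusted p of 4.26e-06 in edgeR from 51 counts at 72 hpf and 1 at 48 hpf, a ratio of 58.8 with a 95% counting interval of 10.1 to 2365. Against the 13 counts of slick-series clean water at 48 hpf, the same 51 counts gave a ratio of 4.28 (2.30 to 8.58), so the size of the FOS difference depends on which 48 hpf series is used. FOSL1 had 12 counts at 72 hpf and 0 at 48 hpf, which makes it at least 4.61-fold higher (against a floor of 3 counts over the group). All 8 members measured lay higher without overlap, as did 22.3% of the genes that passed the filter, which FOSB and FOSL1 did not. The 72 hpf clean-water libraries of this comparison are those set against both oils above.

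Deviations of NPAS4 and FOS from their group means were correlated with those of every other gene over the 23 libraries, as a description. The 5 genes most like NPAS4 were MAP1A (Pearson r = 0.727), NPTXR (0.722), PCNXL4 (0.715), FPGT-TNNI3K (0.706) and SPG11 (0.703). The 5 most like FOS were SHD (0.813), SLC5A7 (0.775), GPATCH3 (0.741), GAL3ST1 (0.740) and FBXW8 (0.732). No member was among them. NPAS4 had r = 0.284 with FOS, 0.406 with FOSB and -0.459 with JUNB, and FOS had 0.561 with EGR1 and 0.537 with FOSB. These values share libraries and depth, are the highest of 9768 genes, and at 24 and 48 hpf rest on few counts.

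Other genes of the early response, a list of 37 that includes the NR4A, KLF, DUSP, IER and ZFP36 families and of which 10 had no count in the 23 libraries, were read beside the members. Shares of all genes called in either direction serve for this list and those below. At 24 hpf they were 5.42% with source oil and 2.19% with slick oil. They were 2.68% with slick oil at 48 hpf, and 20.4% with source oil and 18.6% with slick oil at 72 hpf. In clean water they were 4.45% between the series, 47.0% at 48 over 24 hpf and 30.8% at 72 over 48 hpf. Between the oils 1.81% differed by at least 2-fold. At 72 hpf, of 26 listed genes tested with source oil, 17 were higher and 1 was lower, with a median log2 fold change of 0.55 against 0.00 over all genes. With slick oil over the same clean-water libraries 6 were higher and 1 was lower, with a median of 0.09 against 0.01. Between the oils 7 were at least 2-fold lower and 1 was at least 2-fold higher in slick oil, with a median of -0.42 against 0.00. PTGS2, the inducible prostaglandin synthase, had 112, 125 and 257 CPM in slick oil, 766, 1009 and 432 CPM in source oil and 123, 61.3 and 69.4 CPM in clean water. EGR4, a relative of EGR1, had 12.9, 12.6 and 9.84 CPM, then 30.5, 26.2 and 29.1 CPM, then 9.25, 11.3 and 8.54 CPM in the same order of groups. DUSP1, a phosphatase that ends MAP kinase signals, had 30.5, 33.5 and 50.3 CPM in slick oil, 152, 187 and 80.6 CPM in source oil and 51.1, 35.3 and 46.3 CPM in clean water.

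Library 3 of source oil, the lowest for 7 of 8 members, was also the lowest for PTGS2 and DUSP1 but not for EGR4, which stayed even like NPAS4. The growth-arrest gene GADD45A averaged 35.0 ± 5.73 CPM in slick oil, 80.1 ± 20.6 CPM in source oil and 14.8 ± 3.82 CPM in clean water, so that both oils lay above clean water. Its log2 fold changes over clean water were 1.25 (SE 0.18) for slick oil and 2.45 (SE 0.19) for source oil. GADD45B was at -2.17 (SE 0.24) for slick over source oil. PER1, a clock gene that also answers light and glucocorticoid, went the other way, with 85.9 ± 7.70 CPM in slick oil, 26.5 ± 3.82 CPM in source oil and 44.7 ± 21.7 CPM in clean water. NFIL3, a clock-output repressor, averaged 4.10 ± 0.770 CPM in slick oil, 22.5 ± 7.49 CPM in source oil and 19.7 ± 3.91 CPM in clean water.

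**Figure D5:**
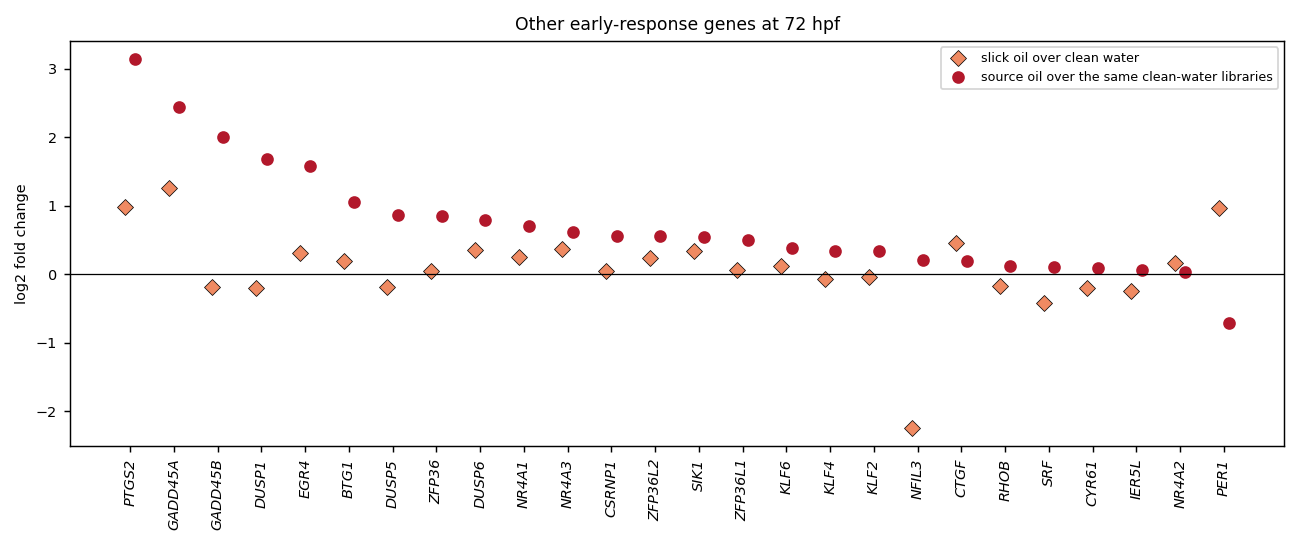
Log2 fold change over clean water at 72 hpf of the 26 other early-response genes tested with source oil, for slick oil (diamonds) and source oil (circles), which share their clean-water libraries, ordered by the source-oil value. PTGS2 (3.14) and GADD45A (2.45) lead in source oil, while most slick-oil values lie near 0 and NFIL3 is lowest at -2.24.

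At 24 hpf 4 of 24 tested genes of that list rose and 1 fell with source oil (median 0.12 against -0.01). DUSP6 and CTGF each lost their call in 4 alternative fits, with 0.31 and 0.26 without source-oil library 1. PTGS2 rose to 21.8 ± 3.38 CPM in source oil, against 8.72 ± 1.45 CPM in clean water, with a log2 fold change of 1.31 (SE 0.17) and an adjusted p of 1.31e-05 in edgeR. TIPARP, a target of the aryl hydrocarbon receptor, rose by a log2 fold change of 0.62 (SE 0.10, adjusted p 0.000199 in edgeR). TIPARP could be tested in no slick-oil comparison and not with source oil at 72 hpf, where its level was 0 CPM in every group. The 24 hpf source-oil table assigned reads in another way, so these values do not show that the gene was silent elsewhere. With slick oil 1 of 25 rose and 0 fell (median -0.09 against 0.00). That gene was PTGS2, at 51.2 ± 7.07 CPM in slick oil (n = 3) and 30.8 ± 3.51 CPM in clean water (n = 2), with a log2 fold change of 0.76 (SE 0.15) and an adjusted p of 0.00358 in edgeR. The call was lost without clean-water library 2 (0.88), clean-water library 3 (0.63) or slick-oil library 1 (0.69).

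At 48 hpf with slick oil 1 of 26 rose and 1 fell (median -0.06 against 0.00). PTGS2 rose to 74.3 ± 8.75 CPM in slick oil, against 35.4 ± 5.65 CPM in clean water, with a log2 fold change of 1.08 (SE 0.13) and an adjusted p of 0.000108 in edgeR. PER1 fell by 0.77 on the log2 scale (SE 0.14, adjusted p 0.00503 in edgeR), a call lost without slick-oil library 2 (-0.67). Between the clean-water series at 48 hpf 2 of 26 were higher and 3 lower in the source series (median -0.05 against 0.01), among them CYR61 (1.14, SE 0.11), a matrix protein gene, and SIK1 (-1.24, SE 0.23), a kinase gene induced by cAMP. With age in clean water 9 of 26 rose and 8 fell at 48 over 24 hpf, beside 47.0% of all genes in either direction. They were led by ZFP36 (-2.04, SE 0.13), a factor that destabilises mRNA. At 72 over 48 hpf 13 rose and 2 fell (median 0.32 against -0.01), led by DUSP5 (1.93, SE 0.16) and DUSP1 (1.52, SE 0.17). In the interaction 0 of 26 were called in edgeR (median 0.09 against 0.02).

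AP-1 and ATF partners, a list of 15, had 2 of 7 tested genes higher with source oil and 0 of 7 with slick oil at 72 hpf, and 0 called in the 3 oil comparisons at 24 and 48 hpf. JUND, the JUN protein of resting cells, averaged 7.72 ± 0.613 CPM in slick oil, 18.8 ± 3.18 CPM in source oil and 7.35 ± 3.03 CPM in clean water. The other gene, CREB1, had counts exactly 2 times those of ATF1 in all 23 libraries, so the reads of these genes cannot be told apart. ATF1 had the same log2 fold change of 0.40 with source oil and was not called. Median log2 fold changes at 72 hpf were 0.40 for source oil and -0.08 for slick oil, against 0.00 and 0.01 over all genes. With age 2 of 6 rose and 3 fell at 48 over 24 hpf, with the calls of MAF (0.70) and CREB1 (-0.59) lost without clean-water library 2 at 24 hpf. At 72 over 48 hpf 2 of 7 rose, CREB1 and ATF1, which are not separate measurements. Between the clean-water series 0 of 7 were called.

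Kinases and factors that switch these genes on, a list of 23 with SRF, the ELK factors, MAP kinases, MEF2 and CAMK genes, had 3 of 18 higher and 1 lower with source oil at 72 hpf, and 0 of 20 called with slick oil. Of those 4, CREB1 (0.24), ELK3 (0.41) and CAMK2A (-0.28) lost their calls without source-oil library 2 and ELK4 (0.64) without source-oil library 3. Over all alternative fits, calls were lost in 8 for CREB1, 3 each for ELK3 and ELK4, and 2 for CAMK2A. Median values were 0.08 against 0.00 and 0.14 against 0.01 over all genes. In the oil comparisons at 24 and 48 hpf 0 of 19 or 20 were called. At 48 over 24 hpf in clean water 8 of 19 rose and 2 fell, beside 47.0% of all genes in either direction. Those that rose include MEF2C (1.09, SE 0.12), CAMK2A (0.92, SE 0.10) and CAMK4 (1.02, SE 0.14), factors and kinases of muscle and neuron. At 72 over 48 hpf 2 of 19 rose and 1 fell. Between the clean-water series 0 of 19 were called.

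Genes downstream of NPAS4 in mouse neurons, a list of 15, had 5 to 7 tested members and 0 called in the oil comparisons at 24 and 48 hpf. At 72 hpf 2 of 7 were higher with source oil (median 0.24 against 0.00) and 1 of 7 with slick oil (median 0.12 against 0.01), TACR1, whose call was lost without clean-water library 3 in both (0.56 with source oil and 0.45 with slick oil). In all, TACR1 lost its call in 5 alternative fits with source oil and in 7 with slick oil. Of the same list 0 of 7 differed by at least 2-fold between the oils. PCSK1, a prohormone convertase, averaged 257.5 ± 44.9 CPM in source oil and 115 ± 8.06 CPM in clean water, a log2 fold change of 1.18 (SE 0.11). With age 5 of 8 rose and 0 fell at 48 over 24 hpf (median 1.03 against -0.01), led by the neuronal pentraxins NPTX2 (1.88, SE 0.22) and NPTX1 (1.85, SE 0.24). At 72 over 48 hpf 4 of 8 rose, of which BDNF (0.66), NPTX1 (0.33) and SCG2 (0.92) lost their calls without clean-water library 3 at 72 hpf. Over all alternative fits, calls were lost in 2 for BDNF, 5 for NPTX1 and 7 for SCG2. Between the clean-water series 0 of 8 were called.

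Handling, heat and stress hormone can move immediate early genes, so lists for heat shock and glucocorticoid response were read beside them. The heat-shock genes HSPA1A, HSPA1B, HSPH1 and DNAJA1 passed the filter in no oil comparison. Neither did FKBP5, TSC22D3, ERRFI1 and HSD11B2 of the glucocorticoid list, so both lists cover these responses only in part. Of 5 measured heat-shock genes (11 listed), 2 were higher and 1 lower with slick oil and 3 were higher with source oil at 72 hpf, with medians of 0.31 and 0.57. In slick oil DNAJB1 (0.43) and HSPA8 (-0.26) missed the threshold without slick-oil library 1. BAG3, a chaperone cofactor, averaged 48.0 ± 7.41 CPM in slick oil, 128 ± 30.3 CPM in source oil and 39.2 ± 1.71 CPM in clean water. With source oil at 24 hpf 4 of 7 rose, with HSPD1 at 0.53 (SE 0.08) and HSPA8 at 0.35 (SE 0.07), while HSP90AA1 (0.28) and BAG3 (0.57) lost their calls without source-oil library 2. With slick oil at 24 hpf 3 of 5 rose, but DNAJB1 (0.83), HSPA8 (0.24) and BAG3 (0.63) all lost their calls without clean-water library 2, and at 48 hpf 0 of 5 were called. BAG3 with either oil and HSPA8 with slick oil at 24 hpf each lost their call in 6 alternative fits. Of 10 or 11 measured glucocorticoid-response genes (15 listed), 1 was higher and 2 lower with slick oil and 4 were higher and 2 lower with source oil at 72 hpf, with medians of -0.03 and 0.24. CEBPB, among those higher with source oil, had 1.16 to 3.33 CPM in clean water, under the filter's level of 3.36 CPM. It passed that filter through source-oil libraries alone, so that it had to differ. PCK1, the gluconeogenic enzyme, was lower with both, at -0.55 (SE 0.09) in slick oil and -0.52 (SE 0.10) in source oil, whereas POMC, the precursor of corticotropin, was at -1.30 (SE 0.19) with slick oil. At 24 hpf 1 of 8 rose with source oil (PCK1, 0.71, SE 0.09) and 0 of 10 were called with slick oil, and at 48 hpf 1 of 10, PER1, fell. Their part in the values of the members was not tested.

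With no oil, 2 of 5 heat-shock genes rose and 2 fell at 48 over 24 hpf, with DNAJB1 (0.54) lost without clean-water library 2 and HSPA8 (-0.27) without library 3 at 24 hpf. Of the same genes 3 of 5 rose at 72 over 48 hpf, and 0 of 5 were called between the clean-water series. Of the glucocorticoid-response genes 3 of 10 rose and 1 fell at 48 over 24 hpf, with POMC (0.88) and PER1 (0.18) lost without clean-water library 2 at 24 hpf. Of these 8 of 10 rose at 72 over 48 hpf (median 0.87 against -0.01), led by PCK1 (3.24, SE 0.14) and SGK1 (1.65, SE 0.10), and 1 of 10, PER1, was lower in the source series at 48 hpf, a call lost without any 1 of 4 libraries (lowest -0.61, highest -0.48).

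Genes known as AP-1 targets in mammals were scarcely measured, with 2 of 14 tested at 24 and 48 hpf, 0 of them called with either oil, and 4 at 72 hpf. With source oil at 72 hpf 2 of 4 were higher, MMP9 and IL11, and with slick oil 1 of 4, IL11. The slick-oil call of IL11, a cytokine gene (1.49, SE 0.44), was lost by DESeq2 and without any library but clean-water library 1, without which it was 3.01. Its source-oil value (2.13, SE 0.42) was 3.65 without clean-water library 1 and was not called by DESeq2. MMP9, a secreted metalloproteinase, had 0.719, 1.44 and 17.5 CPM in slick oil, 79.0, 76.3 and 49.2 CPM in source oil and 18.5, 4.27 and 2.85 CPM in clean water. Its log2 fold change over clean water was 3.01 (SE 0.29) with source oil and 4.26 without clean-water library 1, and for slick over source oil it was -3.36 (SE 0.34) and -5.90 without slick-oil library 3. Slick-oil library 3, the highest of its group for MMP9, PTGS2 and DUSP1, was also the highest for FOS, FOSB and FOSL1. Among clean-water groups CCND1, a cyclin, fell by 1.72 on the log2 scale (SE 0.24) at 48 over 24 hpf, and 0 of 2 were called at 72 over 48 hpf or between the series. Between the oils at 72 hpf, at least 2-fold differences stood in 0 of 20 upstream genes, 1 of 7 partners (JUND, lower in slick oil), 4 of 11 glucocorticoid-response genes (1 higher and 3 lower in slick oil, of which NFKBIA was under 2-fold without source-oil library 1 or 2 or slick-oil library 1, at -0.89, -0.96 and -0.87, and CEBPB without source-oil library 1 or slick-oil library 2, at -0.85 and -0.75), 1 of 5 heat-shock genes (BAG3, lower) and 1 of 4 AP-1 targets (MMP9, lower). Of these glucocorticoid-response genes PER1 and DUSP1 also stand in the early-response list and were counted there as well. In the interaction of slick oil and age edgeR called 0 genes of each of the 7 lists.

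Summed levels of cell type markers stood beside the 72 hpf values as follows. Neuron markers summed to 1507 to 1534 CPM in slick oil, 1494 to 1650 CPM in source oil and 1558 to 1767 CPM in clean water (9, 9 and 8 of 12 detected, with TUBB3, STMN2 and SLC17A6 at 0 in all). Photoreceptor markers summed to 883 to 1000 CPM in slick oil, 651 to 767 CPM in source oil and 1478 to 1824 CPM in clean water (4, 4 and 3 of 5 detected, with PDE6H at 0 in all). Clean-water larvae therefore had the highest photoreceptor sums, without overlap. Macrophage and neutrophil markers summed to 55.0 to 62.4 CPM in slick oil, 59.5 to 69.3 CPM in source oil and 42.2 to 57.3 CPM in clean water (4 of 5 detected, with MARCO at 0). Skin markers summed to 552 to 679 CPM in slick oil, 787 to 827 CPM in source oil and 617 to 684 CPM in clean water, with KRT5 and KRT18 at 0, so source oil was highest without overlap. Blood and endothelium markers summed to 186 to 231, 219.6 to 272 and 163 to 179 CPM in slick oil, source oil and clean water, with PECAM1 at 0. Lens markers summed to 4273 to 4389 CPM in slick oil, 3079 to 3880 CPM in source oil and 5453 to 7515 CPM in clean water (3 of 4 detected, with BFSP1 at 0), and heart markers to 19.4 to 27.0, 18.3 to 23.6 and 44.4 to 54.7 CPM (2 of 4 detected, with NPPA and MYH6 at 0). Both were highest in clean water without overlap. Gut and pancreas markers summed to 14158 to 17900 CPM in slick oil, 27864 to 31257 CPM in source oil and 23578 to 35759 CPM in clean water (3 of 4 detected, with CELA2A at 0). Liver markers summed to 327 to 450, 533 to 715 and 537 to 768 CPM (2 of 5 detected, with APOA1, TF and SERPINA1 at 0) and skeletal muscle markers to 31467 to 32647, 41000 to 48126 and 35643 to 44405 CPM (4 of 5 detected, with ACTA1 at 0) in slick oil, source oil and clean water. These 3 sums were lowest in slick oil without overlap. The part of these cell types in the differences of the members was not tested.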

How the data were processed

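RNA libraries of pooled red drum embryos and larvae were deposited as 6 tables. The library columns hold raw read counts per human gene symbol, as deposited by the authors. The log2 fold changes and adjusted p-values in the tables are the authors' own, per the file headers. The submitters' processing notes name the tools HTSeq and DESeq2 and the genome build hg19 (human), and how fish reads were assigned to human symbols is not given in the sources used here. Of 37 library columns, 1 matched no sample and was not used. Some columns repeat a library under another group: the 48 hpf source-oil columns hold slick-series clean-water libraries, the controls of the 72 hpf slick-oil table are the source-series ones, and the third control of the 24 hpf slick-oil table is a 48 hpf library, left out here. That leaves 29 libraries.

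Each comparison was fitted alone with edgeR 4.0.16 (R 4.3.3; limma 3.58.1): TMM scaling, filterByExpr with a minimum count of 10, the quasi-likelihood F test and Benjamini-Hochberg adjustment over all genes tested, with a call at an adjusted p under 0.05. The SE is the log2 fold change divided by the root of F, and 95% intervals are 1.96 SE. Between the oils at 72 hpf a 2-fold difference is counted in place of a test. DESeq2 1.42.0, another scaling, no filter, leaving out each library and a replicate block were alternatives. The edgeR fits were tested on simulated data.

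The members, the 7 gene lists (other early response, AP-1 and ATF partners, upstream kinases and factors, genes downstream of NPAS4 in mouse, glucocorticoid response, heat shock, mammalian AP-1 targets) and the marker lists were chosen with earlier results of these data known. DUSP1, PER1, SRF, CREB1 and ARC are each shared between lists, so counts of different lists are not separate. All 10 members are named, and up to 4 genes with the smallest adjusted p of each list per comparison, with the 5 most like NPAS4 and FOS.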

Additional observations from a re-analysis of the deposited data

How the results depend on the processing

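Of the fold changes of members recomputed under the alternatives, 452 kept their direction and side of the threshold, 25 changed direction and 2 passed a threshold they had missed. The number of members called differed from that reported in 4 fits: 1 (EGR1) in place of 0 with slick oil at 48 hpf without slick-oil library 1, 7 in place of 8 with source oil at 72 hpf by DESeq2, 6 in place of 5 between the oils without slick-oil library 3 (FOSB at -1.44), and 7 in place of 6 at 72 over 48 hpf with no filter. Leaving out each library gave 1 to 1 members with source oil and 0 to 0 with slick oil at 24 hpf, 0 to 1 with slick oil at 48 hpf, 8 to 8 with source oil and 0 to 0 with slick oil at 72 hpf. It gave 5 to 6 between the oils, 0 to 0 between the clean-water series, 2 to 2 at 48 over 24 hpf, 6 to 6 at 72 over 48 hpf and 0 to 0 for the interaction. The changed directions were all of members not called. Leaving out each library, log2 fold changes spanned -0.18 to 0.53 (FOSL2) and -0.29 to 0.25 (EGR2) with source oil at 24 hpf, -0.26 to 0.34 (EGR1) with slick oil at 24 hpf, -0.15 to 0.23 (FOSL2) and -0.65 to 0.17 (JUNB) with slick oil at 48 hpf, -0.07 to 0.66 (FOS) with slick oil at 72 hpf, -0.20 to 0.48 (JUNB) and -0.26 to 0.033 (EGR1) between the clean-water series, and -0.18 to 0.19 (EGR2) for the interaction. EGR1 with slick oil at 24 hpf was -0.66 with the 48 hpf library added as a control, and the interaction of EGR2 was -0.004 with DESeq2 size factors and -0.002 in the DESeq2 test. The cause was not tested.

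Counts of all genes called also moved between fits. The few members, often called in none or in all of those tested, left little room for their counts to move. With source oil at 24 hpf 531 became 344 without source-oil library 2. With slick oil at 24 hpf 196 became 107 by DESeq2, 63, 96, 100 and 489 without clean-water libraries 2 or 3 or slick-oil libraries 1 or 3, and 17 with the 48 hpf library added. With slick oil at 48 hpf 244 became 102 to 941 as libraries were left out. At 72 hpf DESeq2 called 1203 with source oil and 970 with slick oil, where edgeR called 1833 and 1673. Between the oils 162 became 702 with no filter, 253 without source-oil library 3 and 249 with all 23 libraries in 1 fit. Between the clean-water series 405 became 96 to 1202 as libraries were left out.

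Replicate numbers stand in the headers at 24 hpf only. Deviations of same-numbered libraries correlated at 0.137, 0.018 and 0.126 with source oil and at -0.014 and -0.019 with slick oil. With 2 or 3 libraries per group, these values cannot show whether libraries of the same number were paired. With source oil, library 2 correlated best with clean-water library 3 and the other 2 with their own number. With the replicate block 1 member was called with source oil and 0 with slick oil. In all, 852 and 198 genes were called, beside 531 and 196 without the block. In 119 fits of list genes a call was lost. Members with under 10 counts a library at 24 and 48 hpf limit what could be detected there.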
